A study of Danio rerio with 32 samples.

Results

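RNA of whole zebrafish larvae carrying the pllp mutation pd1245 was compared with RNA of wild-type larvae of the EK strain, both raised on a high protein (HP) diet and collected at 20 days after fertilization. The libraries were chosen by their genotype and diet labels within the first experiment of the series. They were 3 pd1245 and 3 EK libraries, 6 of the 32 libraries in all. The submitters describe pd1245 of that experiment as a new mutation whose carriers survive poorly when nutrition is restricted. Further sets of libraries are used beside them. One is pd1116 on HP (3 libraries), an older pllp mutation whose survival defect is described as adapted. Another is pd1245 and EK on a low protein (LP) diet from the same experiment (3 libraries each). The last is a pd1245 line described as adapted and its EK controls on HP, from a second experiment with another library kit (3 libraries each). The labels give neither the lesion of each allele nor the zygosity of the larvae. They are also silent on the number of animals pooled per library and on their parentage and tanks, so the p-values measure only the spread between libraries, which may be technical.

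Plasmolipin, the product of pllp, is a small membrane protein with 4 passes through the bilayer that belongs to the MAL family. It was first described in myelin, and in the zebrafish gut it acts in apical and endosomal trafficking of epithelial cells, including the enterocytes that take up dietary protein whole. The HP comparison shows the difference between the pd1245 and EK larvae where protein was not restricted. As the labels give no parentage or tanks, effects of the mutation, the background of the line and the tank cannot be told apart in it.

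The pd1245 libraries held 25015075, 21664463 and 28291407 counts assigned to genes, and the EK libraries 24059178, 29147958 and 25158110. Levels are given in CPM, counts divided by library size and scaled between libraries by TMM, a trimmed mean of log ratios. The first principal component of the 6 libraries carried 42.2% of the variance, and pd1245 lay between 19.41 and 35.54 on it, EK between -29.15 and -23.62. Counts of cytosolic ribosomal proteins made up 7.562 to 8.509% of the libraries of pd1245 and 6.864 to 7.912% of those of EK. The labelled source, whole larvae, was matched by detected markers of muscle, skin, gut, liver, pancreas, brain, eye, ear, skeleton and blood, with the lowest share in the leukocyte list, where 33 of 42 members passed the filter on low counts. In bulk libraries of this kind, fewer cells of a type and less RNA per cell cannot be told apart.

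The mutated gene itself was measured at 9.24, 9.22 and 10.16 CPM in pd1245 and at 12.0, 12.5 and 11.3 CPM in EK. All 3 pd1245 libraries lay below all 3 EK libraries, but the difference did not pass the test (log2 fold change -0.32 ± 0.17 SE, adjusted p = 0.343). The pllp transcript averaged 6.81 ± 0.31 CPM in pd1116 on HP (SD, n = 3). On LP it averaged 5.50 ± 1.89 CPM in pd1245 and 15.06 ± 2.17 CPM in EK (SD, n = 3 each), and in the second experiment 6.60 ± 1.08 CPM in pd1245 and 32.8 ± 3.93 CPM in EK (SD, n = 3 each). Without the lesion, the transcript level on HP cannot check the genotype label.

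Between pd1245 and EK on HP, 947 of 22742 genes passed an adjusted p of 0.05 (4.16%). Of these, 370 were higher (1.63% of the genes tested) and 577 lower (2.54%) in pd1245. At least a 2-fold difference was seen for 106 of the higher and 143 of the lower genes. The groups did not overlap for 5263 genes (23.1%), and the median log2 fold change over all genes was -0.003. The lower genes included some of fast muscle, collagen matrix, skeleton, lens and myelin, and the higher genes included keratins and a few hair-cell genes. The count was lower without any of the 6 libraries, where 1 group is left with fewer replicates. It was 718, 381 and 660 without EK replicates 1, 2 and 3, and 534, 379 and 770 without pd1245 replicates 1, 2 and 3. The 18 libraries of the experiment shared an estimate of spread, and leaving out pd1245 LP replicate 3, which is in neither group, gave 2169. A fit of the 3 HP groups alone gave 1558.

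**Figure D1:**
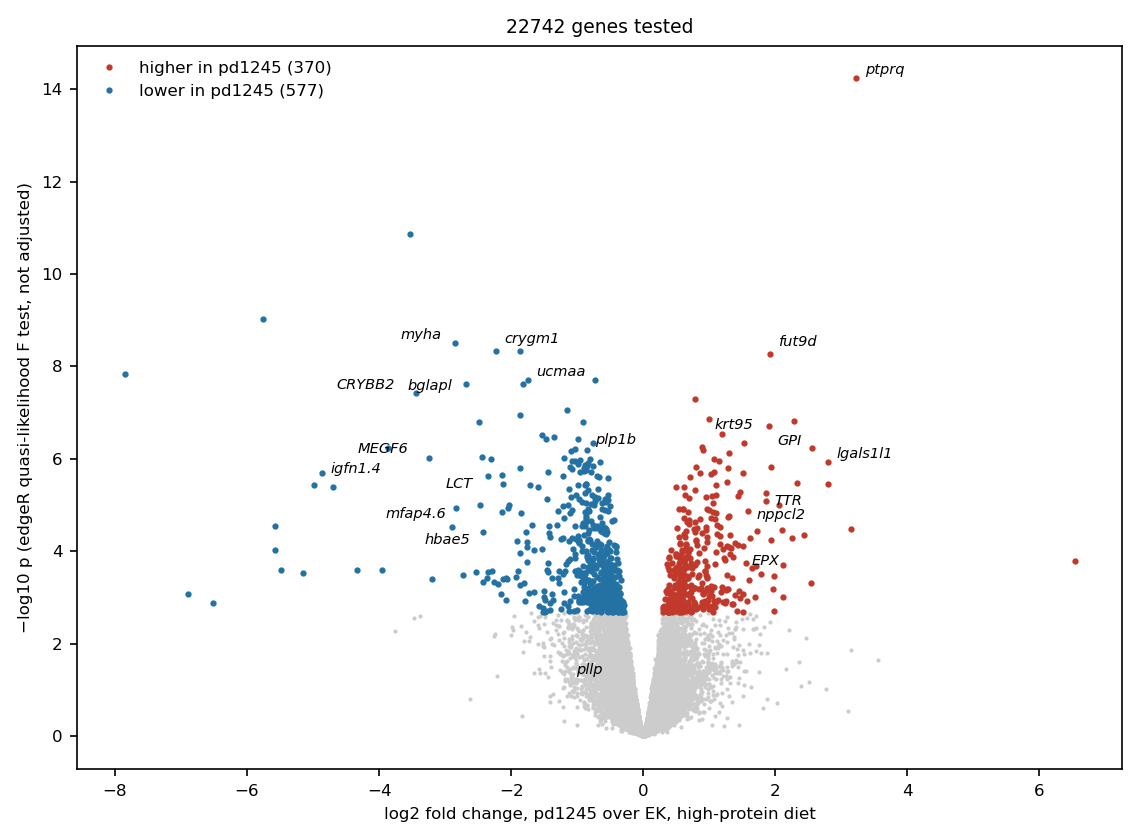
Log2 fold change of pd1245 over EK on the high-protein diet (x axis) against the unadjusted −log10 p of the edgeR quasi-likelihood F test (y axis) for 22742 genes. Red points are the 370 higher and blue points the 577 lower genes at an adjusted p under 0.05; ptprq stands apart at a log2 fold change of 3.23, and pllp lies among the grey points that were not called.

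The called genes named by fold change averaged at least 2 CPM over the 6 libraries and have a symbol other than a clone name. They also had to have groups that did not overlap, so their separation was fixed by the rule. Of all genes tested, 23.1% had such groups. Among the higher genes named in this way, ptprq had the largest fold change. In mammals it encodes a phosphatase of the hair bundle of inner-ear hair cells. It reached 36.2, 33.4 and 36.4 CPM in pd1245, against 3.77, 3.49 and 4.05 CPM in EK, a log2 fold change of 3.23 ± 0.14 SE (adjusted p = 1.33e-10). The groups were far apart and each was narrow. No other gene in the comparison had a smaller p. The galectin-like gene lgals1l1 followed, at 97.8, 63.6 and 52.6 CPM in pd1245 and 10.3, 10.6 and 9.82 CPM in EK (2.80 ± 0.40 SE, adjusted p = 0.000559). Its pd1245 libraries varied widely, and all lay above EK. The fucosyltransferase gene fut9d reached 40.4, 52.7 and 45.5 CPM in pd1245, against 13.1, 9.67 and 13.8 CPM in EK (1.92 ± 0.19 SE, adjusted p = 1.77e-05).

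GPI (ENSDARG00000103826), a copy of the glycolytic enzyme glucose-6-phosphate isomerase, averaged 58.0 ± 5.05 CPM in pd1245 and 15.6 ± 3.85 CPM in EK (SD, n = 3 each; log2 fold change 1.90 ± 0.24 SE, adjusted p = 0.000215). The other gene of that symbol, ENSDARG00000012987, had 191 ± 12.2 CPM in pd1245 and 199 ± 4.07 CPM in EK and was not called. How reads of such near copies were shared in counting was not tested. TTR, which encodes transthyretin, a carrier of thyroid hormone in blood, was at 8.02, 7.67 and 5.41 CPM in pd1245 and at 3.18, 1.38 and 1.27 CPM in EK (1.87 ± 0.31 SE, adjusted p = 0.00156). The natriuretic peptide gene nppcl2 averaged 4.93 ± 1.09 CPM in pd1245 and 1.62 ± 0.20 CPM in EK (1.59 ± 0.27 SE, adjusted p = 0.00206). The keratin krt95 was at 3.97, 4.03 and 4.17 CPM in pd1245 and 1.4, 1.31 and 1.51 CPM in EK (1.53 ± 0.20 SE, adjusted p = 0.000376). EPX, annotated as a peroxidase of granulocytes, completed the 8 with 59.7, 97.6 and 89.1 CPM in pd1245 and 34.0, 19.6 and 33.1 CPM in EK (1.51 ± 0.30 SE, adjusted p = 0.00651); its adjusted p was 0.0536 without EK replicate 2.

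Among the lower genes named by the same rule, igfn1.4, CRYBB2, MEGF6 (ENSDARG00000079199) and mfap4.6 averaged under 1 CPM in pd1245. The muscle gene igfn1.4, whose mouse relative encodes a protein of the sarcomere's Z-disc, was at 0.153, 0.177 and 0.0689 CPM in pd1245, against 3.65, 5.44 and 2.54 CPM in EK (log2 fold change -4.86 ± 0.69 SE, adjusted p = 0.000676). CRYBB2, a lens crystallin, was at 0.879, 0.399 and 0.827 CPM in pd1245 and at 9.03, 7.84 and 6.63 CPM in EK (-3.44 ± 0.39 SE, adjusted p = 6.46e-05). MEGF6 (ENSDARG00000079199) averaged 0.399 ± 0.021 CPM in pd1245 and 3.85 ± 1.38 CPM in EK (-3.25 ± 0.45 SE, adjusted p = 0.000549). The EK libraries varied among themselves in igfn1.4 and MEGF6, and none came near pd1245.

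The fast-muscle myosin gene myha was at 5.04, 3.95 and 3.03 CPM in pd1245 and at 42.1, 28.5 and 15.8 CPM in EK (-2.85 ± 0.27 SE, adjusted p = 1.76e-05). The gene mfap4.6 averaged 0.682 ± 0.323 CPM in pd1245 and 5.01 ± 0.594 CPM in EK (-2.83 ± 0.48 SE, adjusted p = 0.00196). The osteocalcin-like gene bglapl was at 2.25, 1.51 and 3.13 CPM in pd1245, against 13.1, 18.2 and 13.5 CPM in EK (-2.68 ± 0.29 SE, adjusted p = 4.5e-05). The alpha-globin gene hbae5 was at 6.53, 6.43 and 14.1 CPM in pd1245 and 77.5, 42.9 and 26.7 CPM in EK (-2.43 ± 0.45 SE, adjusted p = 0.00408). LCT (ENSDARG00000092404), annotated as the brush-border enzyme lactase, was at 7.56, 7.85 and 7.30 CPM in pd1245 and at 22.8, 34.0 and 59.34 CPM in EK (-2.36 ± 0.35 SE, adjusted p = 0.000727). For myha, hbae5 and LCT the EK libraries spread by more than 2-fold while the pd1245 libraries stayed below the lowest of them, as the rule for naming required.

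**Figure D2:**
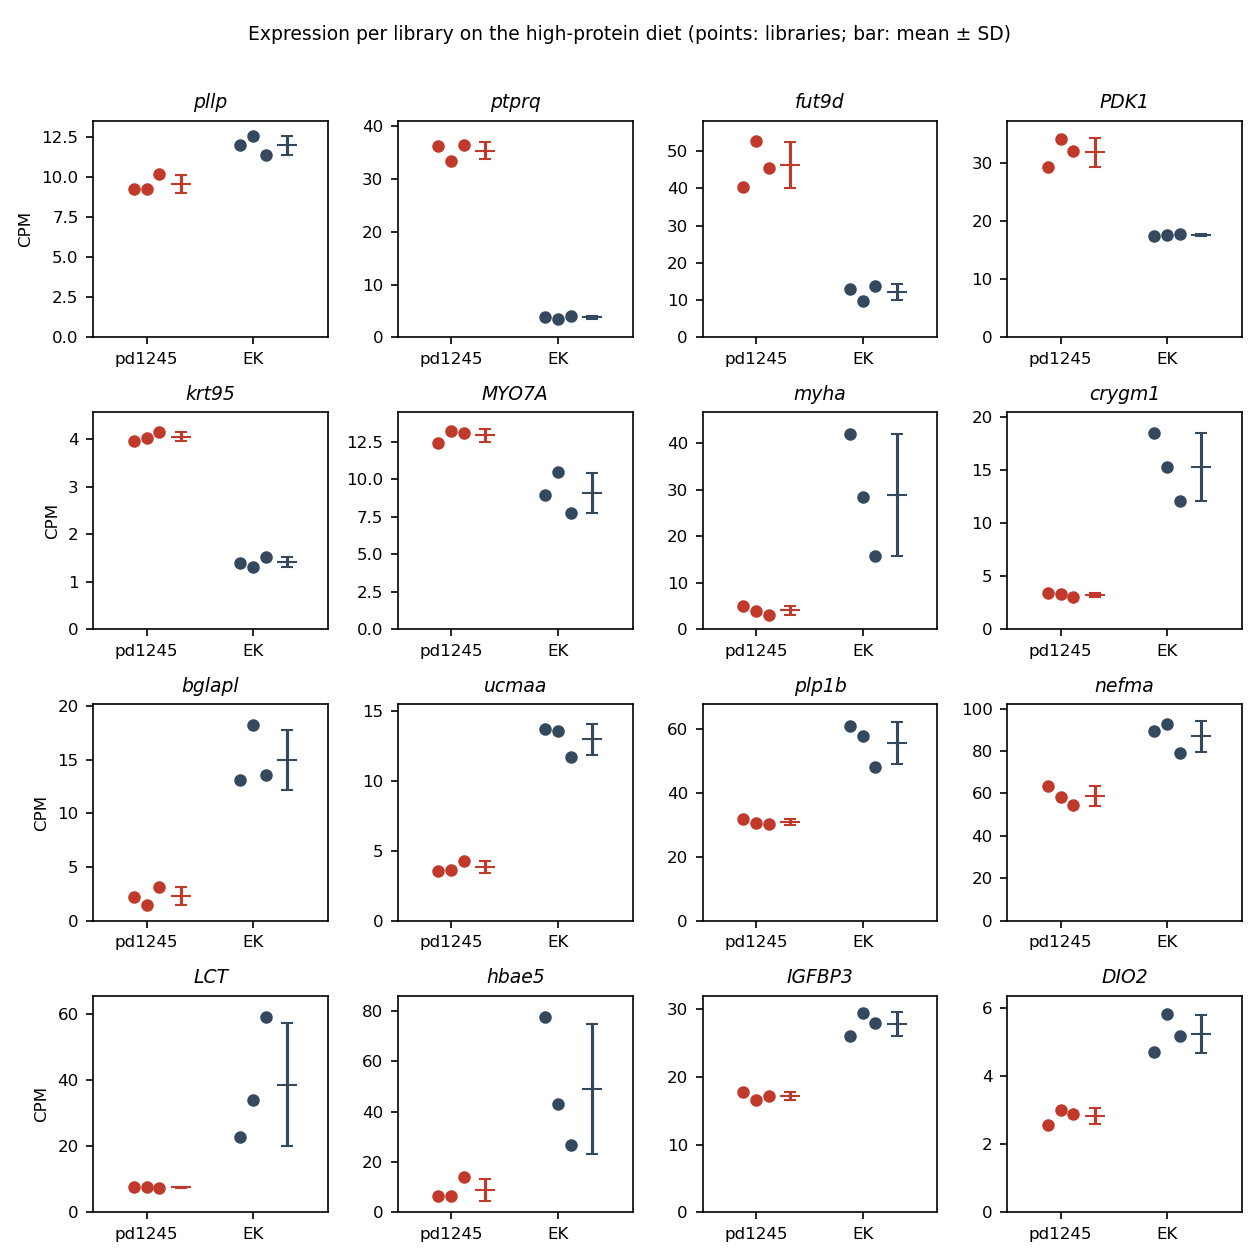
CPM (y axis, from 0) of 16 genes in the 3 pd1245 and 3 EK libraries on the high-protein diet; points are libraries and the bar beside them is the mean with its SD. The groups do not overlap in any of the 16 panels, including pllp, whose difference did not pass the test. For the genes named by fold change this was a condition of the choice, and 23.1% of all genes tested had groups that did not overlap.

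Genes of the fast-twitch muscle fibre formed the lower group with the largest share of transcripts. Of 36 list members tested, 13 were lower and 0 higher (36.1%, where 4.16% of all genes were called). The median log2 fold change was -0.46. The summed level of the list was 73260, 67310 and 54290 CPM in pd1245 and 88010, 102300 and 97140 CPM in EK. The lower members covered the thick filament (myha, myhz1.2, myhz2, MYBPC2, mybpc2b), the thin-filament switch (TNNT3, ENSDARG00000068457, and 3 genes named TNNI2) and calcium handling (pvalb1, pvalb2, pvalb3 and CASQ1, ENSDARG00000038716). The myosin genes myha, myhz1.2 and myhz2 lie within 20 neighbouring genes of the gene order used below. How reads were divided among them in counting was not tested. MYBPC2, a myosin-binding protein, averaged 21.6 ± 2.99 CPM in pd1245 and 44.1 ± 7.36 CPM in EK (-1.03, adjusted p = 0.000559). The troponin I gene TNNI2 (ENSDARG00000013752) was at 3.74, 2.97 and 3.55 CPM in pd1245 and at 15.9, 10.9 and 11.0 CPM in EK (-1.87 ± 0.18 SE, adjusted p = 1.77e-05). The parvalbumin gene pvalb2, a calcium buffer of fast fibres, averaged 5738 ± 196 CPM in pd1245 and 9342 ± 641 CPM in EK (SD, n = 3 each; -0.70, adjusted p = 0.0323).

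The count for fast muscle was 7 without EK replicate 2, EK replicate 3 or pd1245 replicate 3, 6 without pd1245 replicate 2, and 22 without pd1245 LP replicate 3. The call on pvalb2 was lost without any of the 6 libraries (adjusted p up to 0.122), and that on myhz1.2 without EK replicates 2 or 3 or pd1245 replicates 2 or 3 (up to 0.0864). Those on TNNT3 and pvalb1 were also lost without any of the 6 (up to 0.150 and 0.121 in that order), CASQ1 without the same 4 libraries as myhz1.2 (0.0821), pvalb3 without EK replicate 1 or pd1245 replicate 2 (0.0821), and TNNI2 (ENSDARG00000005841) without EK replicates 2 or 3 or any pd1245 library (0.208). The calls on myha, myhz2, MYBPC2, mybpc2b and TNNI2 (ENSDARG00000013752 and ENSDARG00000029995) held in all 15 alternatives run. In slow and cardiac muscle, 2 of 23 members were lower and 0 higher (8.7%, against 4.16% of all genes), with a median of -0.30. They were smyhc2, a slow myosin heavy chain, at 145 ± 12.2 CPM in pd1245 and 209 ± 27.3 CPM in EK (-0.53 ± 0.12 SE, adjusted p = 0.017), and the myosin-binding protein MYBPC1, at 40.2 ± 3.95 CPM in pd1245 and 57.2 ± 10.3 CPM in EK (-0.51 ± 0.13 SE, adjusted p = 0.0294). Both calls were lost without EK replicates 2 or 3 or pd1245 replicate 2 (adjusted p up to 0.105 for smyhc2 and 0.183 for MYBPC1), that on smyhc2 also without pd1245 replicate 1 and that on MYBPC1 without pd1245 replicate 3.

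Some collagens and enzymes that build the matrix were lower in pd1245. Of 93 members tested, 23 were lower and 1 higher, the fin-fold gene and3 (25.8%, against 4.16% of all genes). The median was -0.45. The lower members included the chains of type I collagen, the main collagen of skin and bone, with COL1A2 at 715 ± 150 CPM in pd1245 and 1350 ± 243 CPM in EK (-0.92, adjusted p = 0.0197). They included the cartilage collagens COL9A1, COL9A2 and col9a3 and COL10A1 (ENSDARG00000101535), a collagen of maturing cartilage and of bone-forming cells in fish, at 9.37 ± 3.56 CPM in pd1245 and 35.4 ± 5.32 CPM in EK (-1.91, adjusted p = 0.00553). Among modifying enzymes, the prolyl hydroxylase P4HA1 was at 5.12, 4.48 and 4.27 CPM in pd1245 and at 7.80, 9.56 and 10.1 CPM in EK (-0.99 ± 0.14 SE, adjusted p = 0.000592). The cross-linking enzyme LOX was at 10.199, 10.8 and 12.7 CPM in pd1245 and at 20.1, 23.4 and 22.4 CPM in EK (-0.97 ± 0.16 SE, adjusted p = 0.00148).

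The list's sum was 14930, 11380 and 13300 CPM in pd1245 and 17060, 23210 and 20990 CPM in EK, so that EK replicate 1 lay closest to pd1245. The number of lower members was 8 without EK replicate 2, 12 without EK replicate 3, 15, 7 and 12 without pd1245 replicates 1, 2 and 3, and 49 without pd1245 LP replicate 3. A fit of the 2 groups alone gave 36 and one of the 3 HP groups 42. Calls on P4HA1, LOX, COL10A1 and COL8A1 held in all 15 alternatives. That on COL1A2 was lost without EK replicates 2 or 3 or pd1245 replicates 2 or 3 (adjusted p up to 0.117), and that on and3 without EK replicates 1 or 2, pd1245 replicates 1 or 3 (up to 0.202). Those on COL9A1, COL9A2 and col9a3 were lost without EK replicates 2 or 3 or pd1245 replicates 2 or 3, and for COL9A2 and col9a3 also without pd1245 replicate 1 (0.126, 0.219 and 0.221).

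Of 34 skeletal genes, 11 were lower and 1 higher (35.3%, against 4.16% of all genes), with a median of -0.46. The cartilage matrix gene ucmaa was at 3.59, 3.64 and 4.30 CPM in pd1245, against 13.7, 13.6 and 11.7 CPM in EK (-1.75 ± 0.19 SE, adjusted p = 4.5e-05). MATN1, a cartilage matrilin, averaged 192 ± 22.5 CPM in pd1245 and 391 ± 84.7 CPM in EK (-1.03, adjusted p = 0.00844), and its call was lost without EK replicate 2 or pd1245 replicate 2 (adjusted p up to 0.0603). The collagenase mmp13b averaged 3.52 ± 1.11 CPM in pd1245 and 9.53 ± 1.01 CPM in EK (-1.42, adjusted p = 0.00418). The higher member was another matrilin, MATN3 (ENSDARG00000069245), at 52.7 ± 9.30 CPM in pd1245 and 30.8 ± 2.499 CPM in EK (0.77, adjusted p = 0.0253), a call lost without replicates 1 or 2 of either group (up to 0.128). The list held 5 lower members without EK replicate 2 or pd1245 replicate 2 and 7 without pd1245 replicate 3. Calls on ucmaa, bglapl and mmp13b held in all 15 alternatives.

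**Figure D3:**
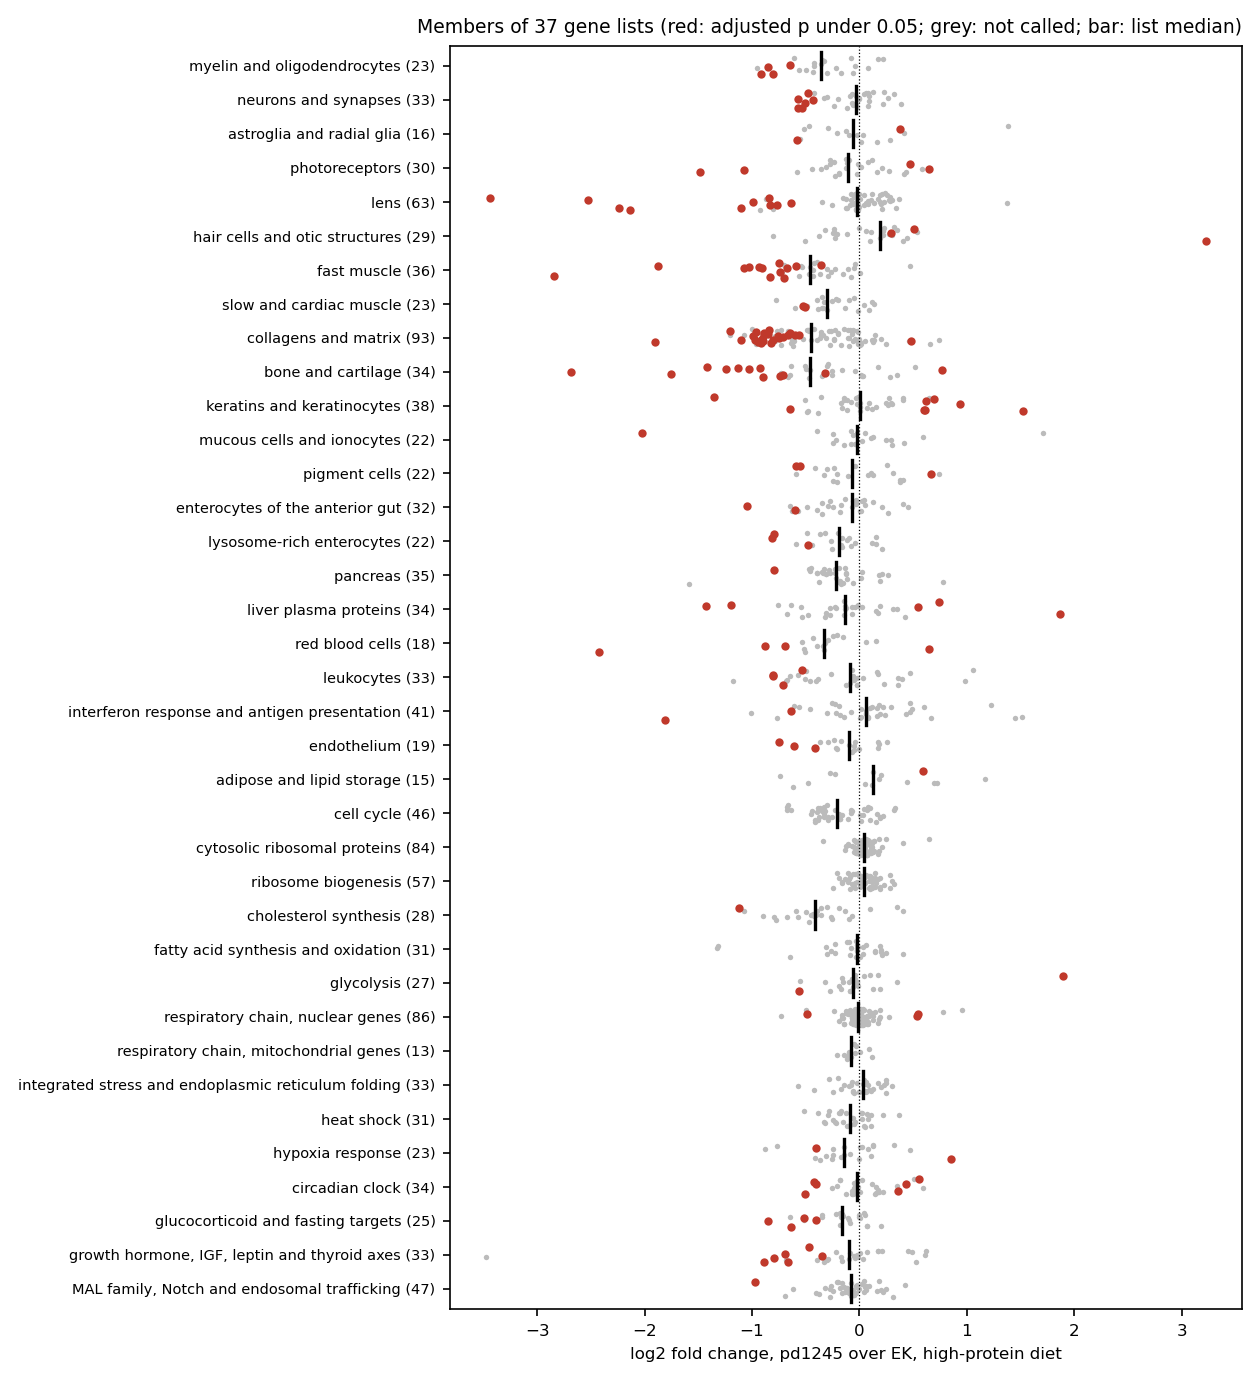
Log2 fold change of pd1245 over EK on the high-protein diet (x axis) for the members of 37 gene lists (rows, with the number tested in brackets). Red points are members at an adjusted p under 0.05, grey points members not called, and black bars list medians; the red points of fast muscle, lens and myelin all lie below 0, and the lists of ribosomal proteins and ribosome biogenesis hold no red point.

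In the lens, 10 of 63 members were lower and 0 higher (15.9%, against 4.16% of all genes), but the list median was -0.02. Of the lower members, 7 were gamma-M crystallins or a relative, proteins of the fibre cells that fill the fish lens. The gamma-M crystallin crygm1 was at 3.44, 3.28 and 3.03 CPM in pd1245 and at 18.5, 15.3 and 12.1 CPM in EK (-2.24 ± 0.22 SE, adjusted p = 1.77e-05). crygm2e averaged 22.1 ± 2.31 CPM in pd1245 and 47.4 ± 6.17 CPM in EK (-1.10, adjusted p = 0.000613). The lens sum was 10620, 12490 and 10170 CPM in pd1245 and 11120, 10500 and 11240 CPM in EK, and the groups overlapped. Genes of this family are near copies of each other, and how their reads were divided in counting was not tested. Calls on crygm1, crygm2a, crygm2c, crygm2e, CRYBB2 and CRYGN (ENSDARG00000102129) held in all 15 alternatives.

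Photoreceptor genes went both ways, with 2 of 30 higher and 2 lower (13.3%, against 4.16% of all genes). The green-cone opsin opn1mw2 was at 17.5, 14.8 and 19.1 CPM in pd1245 and at 33.4, 42.7 and 32.3 CPM in EK (-1.08 ± 0.18 SE, adjusted p = 0.00206). The disc-rim gene PRPH2 (ENSDARG00000014840) was at 76.4, 72.1 and 77.6 CPM in pd1245 and at 48.0, 46.7 and 49.2 CPM in EK (0.65 ± 0.16 SE, adjusted p = 0.0232). The groups were well separated in both genes, yet the call on PRPH2 was lost without any of the 6 libraries (adjusted p up to 0.0972).

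Myelin genes, among which pllp was first known, were lower in pd1245 in 4 of 23 cases and higher in 0. That is 17.4%, against 4.16% of all genes, and the list median was -0.36. The sum of the list was 934.5, 923.0 and 931.5 CPM in pd1245, against 1181, 1205 and 1138 CPM in EK. The proteolipid gene plp1b, which encodes a structural protein of central myelin, was at 31.8, 30.5 and 30.3 CPM in pd1245 and at 61.0, 57.8 and 48.1 CPM in EK (-0.85 ± 0.12 SE, adjusted p = 0.000429). PMP22, a myelin membrane protein also found outside nerves, averaged 71.4 ± 4.28 CPM in pd1245 and 125 ± 11.4 CPM in EK (SD, n = 3 each; log2 fold change -0.80, adjusted p = 0.000549). The calls on plp1b, mbpa and PMP22 held in all 15 alternatives, and the count was 7 in a fit of the 3 HP groups and 9 without pd1245 LP replicate 3.

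Of 33 neuronal genes, 6 were lower and 0 higher (18.2%, against 4.16% of all genes), with a median of -0.03. Those 6 encode the axonal cytoskeleton or growing axons. The neurofilament gene nefma was at 63.5, 58.1 and 54.3 CPM in pd1245 and at 89.2, 92.9 and 78.9 CPM in EK (-0.57 ± 0.09 SE, adjusted p = 0.00165). Its relative nefmb was at 33.0, 30.1 and 31.5 CPM in pd1245 and at 45.5, 46.7 and 44.5 CPM in EK (-0.53 ± 0.09 SE, adjusted p = 0.00209). These calls held in all 15 alternatives. The growth-cone gene gap43 averaged 23.1 ± 2.94 CPM in pd1245 and 34.4 ± 3.63 CPM in EK (-0.57, adjusted p = 0.0177), a call lost without EK replicates 1 or 2 or pd1245 replicates 2 or 3 (up to 0.107). The synaptic and transmitter genes of the list were not among the 6. The count was 3 without EK replicate 1 or pd1245 replicate 3 and 2 without EK replicate 2 or pd1245 replicate 2.

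Among 16 genes of astroglia, 1 was lower and 1 higher (12.5%, against 4.16% of all genes). The fatty-acid carrier FABP7 (ENSDARG00000007697) was lower, at 120, 101 and 128 CPM in pd1245 and 191, 171 and 161 CPM in EK (-0.58 ± 0.13 SE, adjusted p = 0.0178). The glutamate transporter SLC1A3 (ENSDARG00000104431) was higher, at 49.6, 59.0 and 55.2 CPM in pd1245 and 41.4, 42.2 and 42.7 CPM in EK (0.37 ± 0.10 SE, adjusted p = 0.0497). Both calls depended on single libraries: that on FABP7 was lost without replicates 1 or 2 of either group (up to 0.115), and that on SLC1A3 without any EK library or pd1245 replicates 2 or 3 (up to 0.211).

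Of 29 genes of hair cells and the ear, 3 were higher and 0 lower (10.3%, against 4.16% of all genes), with a median of 0.19. Beside ptprq these were MYO7A (ENSDARG00000099871), a motor of the hair bundle, and OTOF (ENSDARG00000030832), a sensor of transmitter release in hair cells. MYO7A was at 12.5, 13.3 and 13.1 CPM in pd1245 and at 8.99, 10.5 and 7.78 CPM in EK (0.51 ± 0.10 SE, adjusted p = 0.00864). OTOF averaged 30.8 ± 1.65 CPM in pd1245 and 25.1 ± 2.08 CPM in EK (0.30, adjusted p = 0.0429), and its call was lost without EK replicates 2 or 3 or pd1245 replicates 1 or 2 (up to 0.210). The sum of the list was 487.5, 515.0 and 512.8 CPM in pd1245 and 498.6, 475.5 and 476.8 CPM in EK, so the groups overlapped. Only ptprq of the 3 differed by more than 2-fold. Of the 29 log2 fold changes 18 were positive and 11 negative. COCH and OTOS, which the list does not hold, were called lower in pd1245 and are given under the other observations.

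Several keratins of the larval skin were higher in pd1245. Of 38 keratinocyte genes 6 were higher and 2 lower (21.1%, against 4.16% of all genes), with a median of 0.01. The skin keratin cyt1 averaged 610 ± 74.2 CPM in pd1245 and 377 ± 30.04 CPM in EK (0.70, adjusted p = 0.00338), and krt17 729 ± 71.6 CPM in pd1245 and 477 ± 29.1 CPM in EK (0.61, adjusted p = 0.00269). The higher members krt1-19d, cyt1l, cyt1 and krt17 lie within 20 neighbouring genes of the gene order used below. How their reads were divided in counting was not tested. The lower members were the keratin krt93, at 4.43, 4.26 and 5.03 CPM in pd1245 and 11.0, 11.3 and 12.9 CPM in EK (-1.36 ± 0.18 SE, adjusted p = 0.000315), and ANXA1, a calcium-dependent membrane binder. ANXA1 lost its call without EK replicate 1 or pd1245 replicates 1 or 2 (adjusted p up to 0.160). The list's sum was 22660, 21540 and 24350 CPM in pd1245 and 20270, 19090 and 19680 CPM in EK. Calls on krt4, krt17, cyt1, krt93 and krt95 held in all 15 alternatives, and without pd1245 LP replicate 3 the number of higher members was 11.

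Of mucous cells and ionocytes, 1 of 22 genes was lower and 0 higher (4.55%, near the 4.16% of all genes called). It was the lectin itln1, at 0.879, 0.399 and 0.930 CPM in pd1245 and 2.38, 3.00 and 3.85 CPM in EK (-2.03 ± 0.34 SE, adjusted p = 0.00179). Of 22 pigment-cell genes, 2 were lower and 1 higher (13.6%). GPNMB, a melanosome protein, was lower at 31.1, 31.9 and 30.2 CPM in pd1245 and 44.1, 46.2 and 46.4 CPM in EK (-0.55 ± 0.11 SE, adjusted p = 0.00809). Among them pnp4a, a purine enzyme of silver pigment cells, was also called lower (-0.59 ± 0.16 SE, adjusted p = 0.0411), and the melanin gene OCA2 higher (0.67, adjusted p = 0.0475). The call on pnp4a was lost without EK replicates 2 or 3 or any pd1245 library (up to 0.178), and so was that on OCA2 (up to 0.24).

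The gut is where pllp is known to act. Of 22 genes of lysosome-rich enterocytes, the cells that take up whole protein, 3 were lower and 0 higher (13.6%, where 4.16% of all genes were called), with a median of -0.19. LGMN, a lysosomal protease, was at 302, 331 and 488 CPM in pd1245 and at 760, 603 and 589 CPM in EK (-0.80 ± 0.17 SE, adjusted p = 0.0107). The endocytic adaptor DAB2 was at 67.3, 71.7 and 72.1 CPM in pd1245 and at 109, 105 and 81.0 CPM in EK (-0.48 ± 0.11 SE, adjusted p = 0.0174). The protease ctsbb averaged 120 ± 36.9 CPM in pd1245 and 212 ± 26.2 CPM in EK (-0.82, adjusted p = 0.0341). The list's sum was 2274, 2506 and 3610 CPM in pd1245 and 4212, 3531 and 3518 CPM in EK, and pd1245 replicate 3 lay among the EK libraries. The count was 0 without EK replicate 1, pd1245 replicate 1 or pd1245 replicate 2, 1 without EK replicate 2 and 7 without pd1245 replicate 3. LGMN lost its call without EK replicate 1 or pd1245 replicates 1 or 2 (adjusted p up to 0.0742), DAB2 without those and EK replicate 2 (0.0986), and ctsbb without these and EK replicate 3 (0.161).

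Of 32 genes of the fat-absorbing anterior gut, 2 were lower and 0 higher (6.25%): the apolipoprotein apoa4b.3, at 92.6, 88.8 and 118 CPM in pd1245 and 140, 160 and 153 CPM in EK (-0.60 ± 0.16 SE, adjusted p = 0.0362), and the fatty-acid elongase ELOVL2, at 38.7, 21.7 and 60.2 CPM in pd1245 and 74.2, 84.7 and 90.8 CPM in EK (-1.04 ± 0.27 SE, adjusted p = 0.0315). Those calls were lost without EK replicates 2 or 3 or pd1245 replicates 1 or 2, and for apoa4b.3 also without EK replicate 1 (adjusted p up to 0.169 for apoa4b.3 and 0.134 for ELOVL2). Among 47 genes of the MAL family, Notch signalling and endosomal trafficking, 1 was lower and 0 higher (2.13%, where 4.16% of all genes were called). It was the membrane-protein gene CMTM3, a relative of the MAL family, at 1.80, 1.99 and 2.62 CPM in pd1245 and 4.41, 4.13 and 4.13 CPM in EK (-0.97 ± 0.19 SE, adjusted p = 0.00535).

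Of 34 genes for plasma proteins of the liver, 3 were higher and 2 lower (14.7%, against 4.16% of all genes). The fetuin genes ahsg1 and ahsg2 were the lower members, with ahsg1 at 53.6, 33.3 and 66.8 CPM in pd1245 and 128, 114 and 112 CPM in EK (-1.20 ± 0.17 SE, adjusted p = 0.000549). The complement genes c3a.6 and c9 were higher beside TTR. The call on c3a.6 (0.74, adjusted p = 0.0134) was lost without EK replicate 2 or pd1245 replicate 3 (up to 0.091), and that on c9 (0.54, adjusted p = 0.0404) without EK replicates 2 or 3 or any pd1245 library (up to 0.206). The number of higher members was 1 without EK replicate 2 or pd1245 replicate 3. In the pancreas list 1 of 35 was lower and 0 higher (2.86%, where 4.16% of all genes were called). It was the amylase amy2al2, at 576, 631 and 704 CPM in pd1245 and 1162, 968 and 1189 CPM in EK (-0.80 ± 0.14 SE, adjusted p = 0.00291).

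Red-cell genes were lower in 3 of 18 cases and higher in 1 (22.2%, against 4.16% of all genes), with a median of -0.33. Their sum was 798.1, 710.5 and 987.7 CPM in pd1245 against 1064, 1139 and 1215 CPM in EK. Beside hbae5, the carbonic anhydrase cahz was lower at 53.3, 45.4 and 62.3 CPM in pd1245 and 87.0, 87.3 and 86.1 CPM in EK (-0.69 ± 0.13 SE, adjusted p = 0.00366), as was the nucleotidase nt5c2l1 (-0.88 ± 0.16 SE, adjusted p = 0.00349). FECH, the enzyme that inserts iron into haem, was higher, at 19.8 ± 1.059 CPM in pd1245 and 12.7 ± 1.28 CPM in EK (0.64, adjusted p = 0.00698). These calls held in all 15 alternatives. The count of lower members was 5 by DESeq2, without pd1245 replicate 3 and without pd1245 LP replicate 3.

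Of 33 leukocyte genes, 4 were lower and 0 higher (12.1%, against 4.16% of all genes). Members were matched by symbol, and EPX, annotated as a granulocyte peroxidase and higher in pd1245 (log2 fold change 1.51), was not among those matched. Whether it is a listed gene under another symbol was not tested, so the 0 higher holds for the matched symbols only. RAG1, which cuts antigen-receptor genes in developing lymphocytes, was at 6.95, 5.36 and 8.02 CPM in pd1245 and at 10.18, 12.35 and 13.2 CPM in EK (-0.81 ± 0.18 SE, adjusted p = 0.013). The inhibitor of matrix proteases TIMP2 (ENSDARG00000061226) was at 90.8, 97.9 and 95.6 CPM in pd1245 and at 151, 131 and 130 CPM in EK (-0.53 ± 0.09 SE, adjusted p = 0.00152). Another gene of that symbol, ENSDARG00000075261, was also among the 4 lower members. Both entered through 1 listed symbol, timp2b, matched without its last letter, so at least 1 of them is not the gene listed. The call on RAG1 was lost without EK replicates 2 or 3 or pd1245 replicate 2 (up to 0.084), and the count was 2 without EK replicates 1 or 2 or pd1245 replicate 1 and 1 without pd1245 replicate 2. Of 41 interferon and antigen-presentation genes, 2 were lower and 0 higher (4.88%, near the 4.16% of all genes called). They were the MHC class I genes mhc1zca (-0.64 ± 0.16 SE, adjusted p = 0.0303) and mhc1zaa (-1.81 ± 0.43 SE, adjusted p = 0.0215). The level of mhc1zaa was low, at a mean of 0.219 CPM in pd1245 and 0.783 CPM in EK (17 and 59 counts over the libraries of each group). Both calls were lost without pd1245 replicates 1, 2 or 3, that on mhc1zaa also without EK replicate 3 and that on mhc1zca without EK replicates 1 or 2 (up to 0.0964 and 0.160 in the same order).

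Of 19 endothelial genes, 3 were lower and 0 higher (15.8%, against 4.16% of all genes). They were led by the junction gene CLDN5 (ENSDARG00000014059) at 11.1, 8.64 and 12.1 CPM in pd1245 and 19.7, 17.6 and 16.5 CPM in EK (-0.75 ± 0.13 SE, adjusted p = 0.00179). The call on CLDN5 held in all 15 alternatives, and it was the 1 that remained in the list without EK replicates 1, 2 or 3 or pd1245 replicates 1 or 2. Of 15 fat-storage genes, 1 was higher and 0 lower (6.67%, where 4.16% of all genes were called). It was the adipocyte regulator pparg, at 16.4, 13.1 and 15.6 CPM in pd1245 and 8.10, 10.8 and 10.9 CPM in EK (0.60 ± 0.15 SE, adjusted p = 0.026), a call lost without replicates 1 or 2 of EK or 1 or 3 of pd1245 (up to 0.107).

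**Figure D4:**
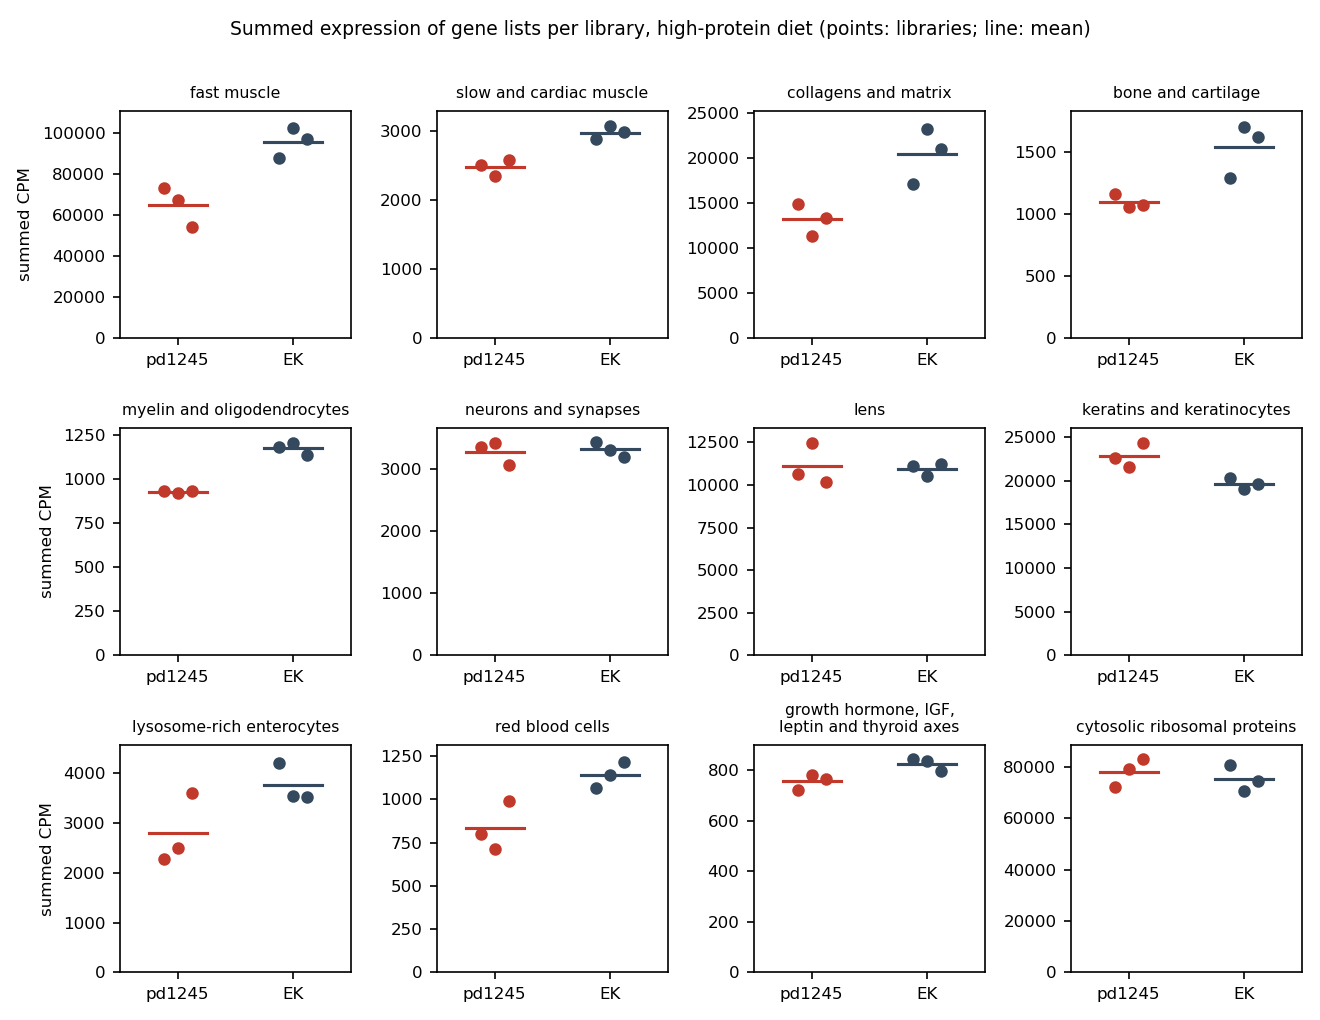
Summed CPM (y axis, from 0) of 12 gene lists in each of the 3 pd1245 and 3 EK libraries on the high-protein diet; points are libraries and lines are means. The groups do not overlap for fast muscle (54290 to 73260 in pd1245, 88010 to 102300 in EK), collagens and matrix, or myelin, and they overlap for lens, neurons, lysosome-rich enterocytes and ribosomal proteins.

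Genes of hormone axes that set growth were lower in 6 of 33 cases and higher in 0 (18.2%, against 4.16% of all genes). Their median was -0.09. IGFBP3, a carrier of insulin-like growth factors, was at 17.7, 16.6 and 17.1 CPM in pd1245 and at 26.0, 29.4 and 27.9 CPM in EK (-0.69 ± 0.10 SE, adjusted p = 0.000727). DIO2, the enzyme that activates thyroid hormone in tissues, was at 2.56, 3.01 and 2.89 CPM in pd1245 and at 4.71, 5.82 and 5.16 CPM in EK (-0.89 ± 0.17 SE, adjusted p = 0.00446). Both calls held in all 15 alternatives. The growth factor IGF1 averaged 2.39 ± 0.41 CPM in pd1245 and 4.18 ± 0.46 CPM in EK (-0.80, adjusted p = 0.0215), and the muscle growth inhibitor mstnb 3.46 ± 0.68 CPM in pd1245 and 5.50 ± 0.65 CPM in EK (-0.67, adjusted p = 0.0239). IGF1 lost its call without EK replicates 2 or 3 or pd1245 replicates 1 or 2 (up to 0.0995), and mstnb without EK replicates 2 or 3 or pd1245 replicates 2 or 3 (up to 0.112). The count was 2 without EK replicate 2 or pd1245 replicate 2, 3 without EK replicate 3 or pd1245 replicate 1, and 11 without pd1245 LP replicate 3.

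Targets of glucocorticoids and fasting were lower in 4 of 25 cases and higher in 0 (16%, against 4.16% of all genes). Their median was -0.16. The muscle ubiquitin ligase trim63b was at 23.4, 35.1 and 28.4 CPM in pd1245 and at 64.2, 51.5 and 40.8 CPM in EK (-0.85 ± 0.18 SE, adjusted p = 0.00927), and the glucocorticoid-induced chaperone partner FKBP5 at 320, 451 and 540 CPM in pd1245 and at 684, 684 and 668 CPM in EK (-0.63 ± 0.15 SE, adjusted p = 0.0248). Those calls were lost without replicate 1 of either group, and for FKBP5 also without EK replicates 2 or 3 or pd1245 replicate 2 (up to 0.0625 for trim63b and 0.113 for FKBP5). The count was 0 without pd1245 replicate 1, 1 without EK replicates 1 or 2 or pd1245 replicate 2, and 2 without EK replicate 3.

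Of 34 clock genes, 3 were lower and 3 higher (17.6%, against 4.16% of all genes). The repressor PER1 (ENSDARG00000056885) was at 30.6, 34.5 and 37.6 CPM in pd1245 and at 43.4, 55.9 and 46.9 CPM in EK (-0.51 ± 0.10 SE, adjusted p = 0.00764), and the activator npas2 at 23.6, 24.2 and 26.8 CPM in pd1245 and at 18.3, 21.2 and 18.4 CPM in EK (0.36 ± 0.09 SE, adjusted p = 0.0294). Repressors (PER1, CRY1, ENSDARG00000011583, and ciarta) were the lower members, and npas2, rorca and rorcb the higher ones. The labels give no hour of collection. No clock gene stayed called in every left-out fit: the lower count was 1 without EK replicate 1 and 0 without EK replicate 2 or pd1245 replicate 1, and the higher count was 1 without EK replicate 2 and 0 without EK replicate 3 or pd1245 replicates 2 or 3. A fit of the 2 groups alone gave 1 of each. PER1 was lost without EK replicate 2 or pd1245 replicate 1 (up to 0.0686), and npas2 without EK replicates 1 or 3 or pd1245 replicates 2 or 3 (up to 0.106).

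The lists of basic cell functions held few called genes or none. None of 46 cell-cycle genes, 84 ribosomal protein genes, 57 ribosome biogenesis genes, 31 genes of fatty-acid synthesis and oxidation, 13 mitochondrial genes, 33 genes of the stress and folding response or 31 heat-shock genes was called by edgeR, in a comparison where 3897 genes had an unadjusted p under 0.05. With 4.16% of all genes called, a count of 0 in such a list does not show that its genes were unchanged. The cell-cycle list had a median of -0.21, with 31 log2 fold changes negative and 15 positive. Of 28 genes of cholesterol synthesis, 1 was lower and 0 higher (3.57%, where 4.16% of all genes were called). The list median was -0.41, and 25 of the 28 log2 fold changes were negative. Of 27 glycolytic genes, 1 was lower and 1 higher (7.41%). ALDOC (ENSDARG00000057661) was lower (-0.57 ± 0.12 SE, adjusted p = 0.0112, and 0.0649 without pd1245 replicate 1) beside the higher GPI. Among 86 nuclear genes of the respiratory chain, 2 were higher and 1 lower (3.49%). Of these, COX6A1, a subunit of cytochrome oxidase, was higher at 20.5, 21.9 and 24.6 CPM in pd1245 and 14.0, 16.6 and 15.3 CPM in EK (0.54 ± 0.12 SE, adjusted p = 0.0115). PDK1, a kinase that restrains the use of pyruvate in mitochondria and a target of hypoxia signalling, was higher at 29.2, 34.1 and 32.1 CPM in pd1245 and 17.4, 17.6 and 17.8 CPM in EK (0.85 ± 0.13 SE, adjusted p = 0.000676). The mitophagy receptor BNIP3L (ENSDARG00000028067), in the same hypoxia list of 23, was lower (-0.40 ± 0.10 SE, adjusted p = 0.0323), a call lost without EK replicates 2 or 3 or pd1245 replicates 1 or 3 (up to 0.157). In that list 1 gene was higher and 1 lower (8.7%, against 4.16% of all genes).

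The difference between the 2 mutant alleles on HP was tested directly, with the same pd1245 libraries. Between pd1245 and pd1116, 2699 genes passed (11.9%), 1343 higher and 1356 lower in pd1245. The level of ptprq averaged 35.3 ± 1.66 CPM in pd1245 and 3.17 ± 0.57 CPM in pd1116 (log2 fold change 3.48, adjusted p = 1.26e-11). LCT (ENSDARG00000092404) averaged 7.57 ± 0.27 CPM in pd1245 and 5.03 ± 0.69 CPM in pd1116 and was not called between them (0.59, adjusted p = 0.355). GPI (ENSDARG00000103826) averaged 58.0 ± 5.05 CPM in pd1245 and 39.9 ± 0.24 CPM in pd1116 (0.54, adjusted p = 0.137). PRPH2 (ENSDARG00000014840) and apoa4b.3 also did not pass between the alleles (0.29, adjusted p = 0.260, and -0.35, adjusted p = 0.160).

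By list, 13 of 36 fast-muscle genes were lower and 1 higher in pd1245 than in pd1116, as were 27 lower and 2 higher of 93 collagen and matrix genes. Of 34 skeletal genes 14 were lower and 2 higher, of 23 myelin genes 9 and 1, of 35 pancreas genes 9 and 0, and of 18 red-cell genes 10 and 1. Of all genes tested, 11.9% were called between the alleles. The count of all genes was 1768, 1769 and 1549 without pd1116 replicates 1, 2 and 3, 1595 without pd1245 replicate 2 and 4557 without pd1245 LP replicate 3.

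The same contrast of genotypes on LP used other libraries, and the difference of the differences was tested as a term for diet. Of the 370 genes higher on HP, 291 (78.6%) had a positive log2 fold change on LP, where 50.8% of all genes did. Of the 577 lower genes, 510 (88.4%) were negative on LP, against 49.1% of all genes. Their medians on LP were 0.35 and -0.59, beside 0.70 and -0.74 on HP, where the genes had been selected. Without pd1245 LP replicate 3, in which ribosomal protein genes took 14.5% of the counts, 303 of the higher genes were positive and 520 of the lower genes negative on LP, where 49.3% and 50.7% of all genes had these signs. Of 64 named genes that were called on HP, 59 had the same sign on LP. The ptprq difference was 3.17 ± 0.14 on LP and 3.23 ± 0.14 on HP (SE), and its diet term did not pass (0.06, adjusted p = 0.894).

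The diet term passed for 1296 genes (5.7%), 773 positive and 523 negative, and upper quartile scaling gave 977 and 408. Among 65 named genes it passed for 11, pllp included. The term shares the HP libraries with the comparison that named them. For fut9d the log2 fold change was 1.92 on HP and 0.31 on LP (difference 1.61 ± 0.26 SE, adjusted p = 0.00501), and for krt95 1.53 on HP and 0.23 on LP (1.3 ± 0.28 SE, adjusted p = 0.0144). For myha it was -2.85 on HP and -0.89 on LP (-1.96 ± 0.40 SE, adjusted p = 0.0117), and for DIO2 -0.89 on HP and 0.26 on LP (-1.15 ± 0.24 SE, adjusted p = 0.0131). DAB2 followed the same course, at -0.48 on HP and 0.27 on LP (-0.75 ± 0.16 SE, adjusted p = 0.0127). The pllp transcript itself was -0.32 on HP and -1.43 on LP (1.11 ± 0.24 SE, adjusted p = 0.0145). Without pd1245 LP replicate 3 the 6 terms were 1.43, 1.3, -1.91, -0.98, -0.74 and 0.88 in this order, each past the threshold.

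By list, the diet term passed in the negative direction for 4 of 36 fast-muscle genes and 6 of 25 glucocorticoid and fasting targets, in the positive direction for 0 of either, and without pd1245 LP replicate 3 for 5 and 7. It passed in the positive direction for 9 of 38 keratinocyte genes (12 without that library) and 6 of 22 genes of lysosome-rich enterocytes, against 1 negative (9 and 1). Among collagen and matrix genes it was 6 of 93 (12, with 1 negative). Over all genes tested the diet term passed for 5.7%, and the 6 of 93 lies near that share. The lysosome-rich enterocyte list had a median log2 fold change of -0.19 on HP and -0.84 on LP (-0.87 without that library). The fast-muscle median was -0.46 on HP and -0.06 on LP (-0.23 without it). The count of all genes with a diet term was 705 and 544 without EK replicates 1 and 2, 391 and 499 without EK LP replicates 2 and 3, 401 without pd1245 replicate 3 and 2849 without pd1245 LP replicate 1. It was 369 in a fit of the 4 groups and 2140 by DESeq2.

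**Figure D5:**
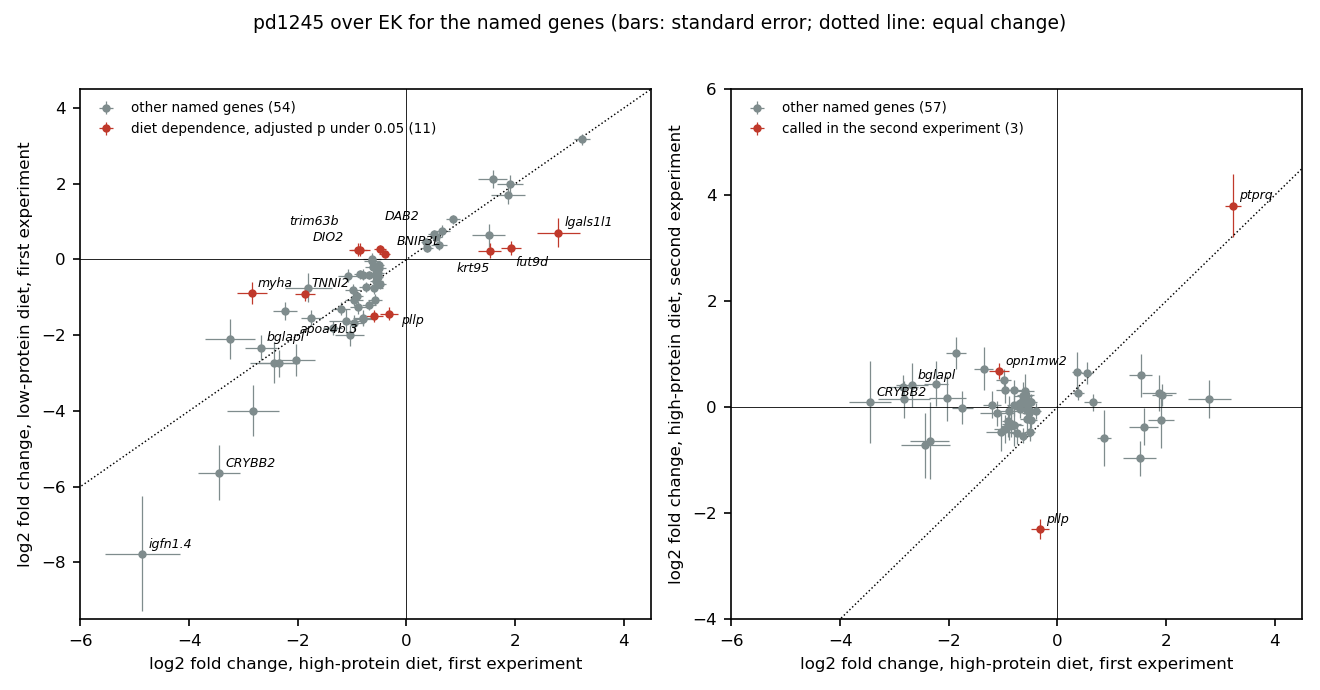
Log2 fold change of pd1245 over EK for 65 named genes on the high-protein diet of the first experiment (x axes) against the low-protein diet of that experiment (left) and the high-protein diet of the second experiment (right, 60 genes tested). Bars are standard errors and the dotted line marks equal change; on the left the 11 red genes had a diet term past the threshold, and on the right the 3 red genes, ptprq, pllp and opn1mw2, were called, with opn1mw2 in the opposite direction.

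In the second experiment the adapted pd1245 line was compared with its own EK controls on HP, at 3713048 to 12200600 counts per library. There, 240 of 16671 genes were called (1.44%), 90 higher and 150 lower. Of 267 genes that were higher in the first experiment and tested in both, 145 were positive again (54.3%, where 49.3% of all genes were), 6 were called higher and 7 lower. Of 514 lower genes, 277 were negative again (53.9%, where 50.7% of all genes were), 12 were called lower and 4 higher. The median log2 fold changes of these genes were 0.06 and -0.03 in the second experiment. The lines differ in their described state, and the experiments differ in kit, depth and time, which cannot be told apart. The count was 157, 126 and 152 without pd1245 replicates 1, 2 and 3 of that experiment, 377 without a filter, 115 with a strict one and 136 in a fit of the 2 groups.

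The genes named next are from the 18 called in the same direction in both experiments, chosen after their values were seen. The level of ptprq in the second experiment was 1.81 ± 0.30 CPM in pd1245 and 0.098 ± 0.102 CPM in EK (SD, n = 3 each; adjusted p = 0.00164). These are 60 counts in pd1245 and 3 in EK over the 3 libraries of each, a ratio of 14.4 with an exact 95% interval of 4.69 to 71.7 that covers counting error only. The matricellular gene CCN1 was at 9.82, 9.80 and 9.54 CPM in pd1245 and 28.1, 31.9 and 23.9 CPM in EK in the first experiment (-1.53 ± 0.20 SE, adjusted p = 0.000295), and averaged 9.88 ± 3.50 CPM in pd1245 and 31.0 ± 7.57 CPM in EK in the second (-1.66, adjusted p = 0.00264). DES (ENSDARG00000005221), annotated as desmin, averaged 20.8 ± 2.82 CPM in pd1245 and 9.65 ± 0.58 CPM in EK (1.11 ± 0.17 SE, adjusted p = 0.000965), and in the second experiment 22.0 ± 2.49 CPM in pd1245 and 3.14 ± 1.93 CPM in EK (2.89, adjusted p = 0.000403). The other DES gene, ENSDARG00000058656, was not called in either. The gene exd1 was at 0.306, 0.177 and 0.207 CPM in pd1245 and 2.33, 2.72 and 3.15 CPM in EK (-3.54 ± 0.25 SE, adjusted p = 1.59e-07), and in the second experiment it had 7 counts in pd1245 and 58 in EK (log2 fold change -3.40, adjusted p = 3.29e-05), a ratio of 0.0867 with an interval of 0.0334 to 0.19. TXNIP (ENSDARG00000036107), an inhibitor of glucose uptake, was lower in both (-0.59, adjusted p = 0.00373, and -0.78, adjusted p = 0.0169).

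Few list members were called in the second experiment. In fast muscle 0 of 36 members were called there and the median was 0.19; in collagens and matrix 0 of 83 (-0.14), in myelin 0 of 19 (-0.04), in the lens 0 of 60 (-0.02) and in keratinocytes 0 of 37 (0.02). These are edgeR counts, in a comparison where 1.44% of all genes were called and 2274 genes had an unadjusted p under 0.05. So near that share, a count of 0 in a list does not show that its difference was lost. Of 60 named genes tested there, 3 were called. Log2 fold changes (± SE) there were 0.38 ± 0.21 for myha, 1.02 ± 0.30 for TNNI2 (ENSDARG00000013752) and 0.42 ± 0.42 for bglapl. Those of ucmaa and crygm1 were -0.01 ± 0.31 and 0.44 ± 0.43, and those of hbae5 and LCT (ENSDARG00000092404) -0.72 ± 0.61 and -0.63 ± 0.72. All were lower in the first experiment, none was called in the second, and they were picked after their values were seen. Of 31 skeletal genes 1 was called higher and 1 lower there, and so it was of 35 pancreas genes. Of 28 photoreceptor genes 1 was higher and 0 lower, and of 16 hair-cell and ear genes 1 and 0.

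Called genes were also placed by gene order, taken from the RefSeq table of another assembly, GRCz12tu, since the files use GRCz11. By unambiguous symbol 15275 tested genes could be placed, and 4.1% of them were called. Of the placed neighbours of pllp, 0 of the nearest 20 and 2 of the nearest 50 (4%) were called. Among the nearest 100, 50 on each side, 4 were called (4%), and among 200 neighbours 13 (6.5%). The gene ptprq lies on the same chromosome in that table, with 155 placed genes between it and pllp. Among the 100 nearest placed neighbours of ptprq 5 were called (5%), and among the 166 placed genes within 100 on either side 9 (5.42%). Both wider windows hold the called genes hsbp1b and endouc. On their chromosome 30 of 497 placed genes were called (6.04%), the highest share among the chromosomes, followed by 5.58% on chromosome 9. The called genes among the 100 nearest to pllp were WEE1, SLC12A3, CETP and pnp6. SLC12A3, a salt transporter, averaged 22.0 ± 3.31 CPM in pd1245 and 30.2 ± 2.13 CPM in EK (-0.45 ± 0.11 SE, adjusted p = 0.0294), and CETP, a lipid transfer protein, 11.1 ± 2.24 CPM in pd1245 and 6.61 ± 0.74 CPM in EK (0.74 ± 0.17 SE, adjusted p = 0.0158). The call on SLC12A3 was lost without EK replicates 2 or 3 or pd1245 replicates 2 or 3 (up to 0.141), and that on CETP without EK replicates 1 or 2 or pd1245 replicate 2 (up to 0.102). The densest run of 20 neighbouring genes held 7 called genes, 6 of them gamma-M crystallin genes.

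Some genes were detected in almost no reads of 1 group, and their fold changes are bounded by counting. The interferon-induced gene ifi44a5 had 3 counts over the pd1245 libraries and 180 over the EK libraries, 57.4-fold lower in pd1245 with a 95% exact interval of 19.3 to 281. Over the same libraries si:ch211-57b15.2 had 0 counts in pd1245 and 46 in EK, at least 14.7-fold lower against a floor of 3 counts over the group. The gene si:dkey-204f11.49p had 36 counts in pd1245 and 0 in EK, at least 12.5-fold higher, and in the second experiment 2.14 CPM in pd1245 and 0 in EK. In that experiment ifi44a5 averaged 2.02 CPM in pd1245 and 1.98 CPM in EK, so its difference was not seen there. There si:ch211-57b15.2 averaged 0.303 CPM in pd1245 and 2.33 CPM in EK. The intervals and floors cover counting error only. The call on si:ch211-57b15.2 was lost without EK replicates 2 or 3 or any pd1245 library (adjusted p up to 0.103). These 3 genes were chosen after their values were seen.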

How the data were processed

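The deposited gene counts were the starting point. Per the submitters' processing notes, reads of the first experiment were handled with FastQC 0.11.7, Trim Galore 0.6.5, STAR 2.7.3a and HTSeq 0.11.1 on GRCz11, while the second experiment lists featureCounts (Subread 2.1.1) with STAR 2.7.11 and fastp 0.24.0. The annotation release and strand setting are not given in the sources used here. The first experiment's counts were deposited by the authors as raw reads per gene, from strand-specific poly(A) libraries per the labels' protocols. Rows that name no gene (reads outside genes were 11.92 to 14.27% of all rows' reads) were left out. The deposited table of the second experiment holds expected counts, partly fractional (78.32 to 84.85% of values whole within 0.005). They were rounded, and its 92 spike-in features and the authors' table of variance-stabilised values were not used.

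Counts were fitted with edgeR 4.0.16 in R 4.3.3, 1 coefficient per group, all groups of an experiment together (18 libraries in the first), with TMM scaling and filterByExpr, which kept 22742 of 32520 genes in the first experiment and 16671 in the second. Each contrast had a 2-sided quasi-likelihood F test, adjusted by Benjamini-Hochberg over every gene tested, with a threshold of 0.05. The SE was obtained by dividing the log2 fold change by the root of F. The biological coefficient of variation was 12.5% in the first experiment and 16% in the second. The named genes are pllp, then the 8 called genes with the largest fold change in each direction (groups apart, mean level 2 CPM or more, clone names passed over), then from each of 37 lists the called members with the smallest p, at most 2; other list members and genes are named as examples after their values were seen. A few genes that met the rule are not reported here. The comparison, lists and members were chosen with earlier results of these data known. Symbols are those of the second experiment's gene table, and a symbol that several genes share is printed with its identifier where first described. List members were matched by these symbols. A listed symbol without an exact match was matched without its final number or its last letter a or b, so gene copies not listed could enter. The alternatives changed the scaling (RLE, upper quartile), the filter (none, or 50 counts), the tool (DESeq2 1.42.0), the groups in the fit or the libraries (each left out in turn), or added a replicate block. Replicate numbers were not used to pair libraries in the main fit. The fit was tested on simulated counts with known changes.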

Additional observations from a re-analysis of the deposited data

Results flagged for a closer look

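The difference between pd1245 and EK itself differed between the diets for 11 of the named genes, by the test of the diet term in the edgeR fit (log2 fold change on HP minus that on LP, adjusted over all genes). The terms were positive for pllp (1.11), lgals1l1 (2.09), fut9d (1.61), krt95 (1.3) and apoa4b.3 (0.89). They were negative for myha (-1.96), TNNI2 (ENSDARG00000013752, -0.97), DAB2 (-0.75), BNIP3L (ENSDARG00000028067, -0.56), trim63b (-1.11) and DIO2 (-1.15). The pd1245 LP group holds a library that stands apart, replicate 3. Without it the term for TNNI2 was -0.79 (adjusted p = 0.0901), and the other 10 terms stayed past the threshold.

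The terms for fut9d, krt95, myha, DAB2 and DIO2 passed in all 19 alternatives run. Those for pllp, lgals1l1, TNNI2, apoa4b.3, BNIP3L and trim63b passed in 18, 12, 8, 15, 11 and 15 of them, in this order. In a fit of the 4 groups alone, the terms for pllp (adjusted p = 0.0542), lgals1l1, BNIP3L and TNNI2 were lost, and with upper quartile factors that for TNNI2. Those for apoa4b.3 and trim63b were lost without EK replicate 1, EK LP replicates 2 or 3 or pd1245 replicate 3 (up to 0.0825 and 0.0555 in that order). That for lgals1l1 was also lost without any EK library, EK LP replicate 3, pd1245 replicate 1 or pd1245 LP replicate 2 (up to 0.0992), and that for BNIP3L without EK replicates 2 or 3, EK LP replicates 2 or 3, pd1245 replicates 1 or 3 or pd1245 LP replicate 2 (up to 0.0978). That for TNNI2 was lost without EK replicates 1 or 2, any EK LP library, any pd1245 library or pd1245 LP replicate 3 (up to 0.109). The HP libraries both named the genes and entered the diet term.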

How the results depend on the processing

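No call on the 65 named genes changed direction in any of the alternatives, 41 kept their side of the threshold in all of them and 24 lost the call in at least 1. For pd1245 against EK on HP the 947 calls became 1558 in a fit of the 3 HP groups, and 379 to 2169 on leaving out a library. With a replicate block 857 were called, 2510 against pd1116, 920 for the diet term and 219 in the second experiment. Deviations from the group means correlated at -0.14, -0.044 and -0.029 between pd1245 and EK libraries of the same number. With 3 libraries per group these values cannot show whether the numbers mark pairs, and the main fit did not pair them. Leaving out a library gave 1549 to 4557 calls against pd1116, 391 to 2849 for the diet term and 126 to 279 in the second experiment. The diet term gave 2140 calls with DESeq2 and 369 in a fit of its 4 groups. Upper quartile scaling gave 977 positive and 408 negative diet terms, against 773 and 523. The second experiment gave 377 calls without a filter, 115 with a strict filter and 136 in a fit of its 2 groups. Among other calls named, the replicate block ended those on SLC1A3, OTOF, pnp4a, OCA2, c9, TNNT3, TNNI2 (ENSDARG00000005841), col9a3, rorca and and3, and a fit of the 2 groups those on MYBPC1, BNIP3L, OTOF, OCA2, npas2, rorca, CRY1, ciarta, mstnb, TNNI2 (ENSDARG00000005841) and SLC12A3. Upper quartile scaling ended those on pnp4a, col9a3 and TNNI2 (ENSDARG00000005841), and no filter those on SLC1A3, OTOF and that TNNI2. Why these counts moved was not tested, beyond fewer samples or genes where the setting itself gives them. Leaving out a library leaves a pair in its group, and the spread of the other groups is then carried over. Depth limits the calls on genes near 0 CPM, and 3 libraries per group limit all of them.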

Other observations

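Further single genes called between pd1245 and EK on HP are given here, chosen after their values were seen, and their values say nothing of the groups of genes they belong to. The gene col17a1b, a collagen that anchors the epidermis to its basement membrane, was at 35.6, 29.8 and 41.9 CPM in pd1245 and 60.0, 69.4 and 68.9 CPM in EK (log2 fold change -0.88, adjusted p = 0.0157). The basement membrane genes lamb3 (-1.21, adjusted p = 0.0161) and itga6b (-0.80, adjusted p = 0.0315) were lower as well. The call on col17a1b was lost without EK replicate 2 or pd1245 replicates 1 or 2 (adjusted p up to 0.0988). That on lamb3 was lost without EK replicate 2 or pd1245 replicates 1 or 3 (up to 0.115), and that on itga6b without any EK library or pd1245 replicates 1 or 2 (up to 0.159). The gene elnb, an elastin, was at 35.2, 31.8 and 32.3 CPM in pd1245 and 85.0, 151 and 124 CPM in EK (-1.86, adjusted p = 0.00222).

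The stereocilin gene strc1 averaged 4.04 ± 0.60 CPM in pd1245 and 1.89 ± 0.62 CPM in EK (1.1, adjusted p = 0.00792). COCH, which encodes cochlin, was at 34.6, 41.0 and 32.9 CPM in pd1245 and 156, 148 and 88.6 CPM in EK (-1.86, adjusted p = 0.000621), and OTOS averaged 15.3 ± 0.51 CPM in pd1245 and 28.0 ± 3.90 CPM in EK (-0.87, adjusted p = 0.00248). These calls held in all 15 alternatives. The phosphate hormone fgf23 was at 1.6, 2.26 and 2.24 CPM in pd1245 and 0.255, 0.318 and 0.450 CPM in EK (2.56, adjusted p = 0.000427), and its log2 fold change on LP was -0.03.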
